A study of Mus musculus with 4 samples.

Results

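Of the 28440 genes counted in 4 mouse mammary tumours, 7 make up the oncofetal IGF2BP, LIN28 and HMGA genes, picked by symbol: Igf2bp1, Igf2bp2, Igf2bp3, Lin28a, Lin28b, Hmga1 and Hmga2. All 7 had a row in the count table. The group was chosen because Igf2bp1 stood apart in 1 tumour, so the members' differences between tumours are given as a description. The 4 libraries are poly-A RNA of mammary gland tumours numbered 1 to 4, all of genotype MMTV-R26Met, a model where Cre, driven by the mouse mammary tumour virus promoter, turns on a Met transgene inserted at Rosa26. There is no treated, normal or control tissue, neither age nor strain is used here, and the labels do not say that each tumour came from a separate mouse.

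These genes share a regulator and a developmental pattern. IGF2BP1, IGF2BP2 and IGF2BP3 are RNA-binding proteins that hold and protect messenger RNAs in the cytoplasm, LIN28A and LIN28B block the maturation of the let-7 microRNAs, and HMGA1 and HMGA2 are small chromatin proteins that bind AT-rich DNA. They are abundant in the embryo and scarce in most adult tissues, Igf2bp2 and Hmga1 less strictly so, and let-7, which rises during differentiation, represses many of them through matches in their 3′ untranslated regions. Return of their expression in tumours gives them the name oncofetal.

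The let-7 seed and its matches are shown because they are what links the members to one another. All 9 names of mature let-7 family 5p microRNAs in the RefSeq table (GRCm38.p6) carry the same seed, bases 2 to 8, in capitals here in 3 of them:
mmu-let-7a-5p: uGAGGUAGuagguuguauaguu
mmu-let-7d-5p: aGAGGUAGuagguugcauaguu
mmu-miR-98-5p: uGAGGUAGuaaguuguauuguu

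The reverse complement of that seed, CTACCTC, was searched on the messenger strand of the 3′ untranslated region. For each gene, the GENCODE M21 transcript (GRCm38) with the longest such region was used. Every member held at least 1 match: Igf2bp1, Lin28b and Hmga2 had 4 each, Lin28a had 2, and Igf2bp2, Igf2bp3 and Hmga1 had 1 each. Over all 21010 genes with such a region, 9.0% held a match. Igf2bp1 has the longest of the 7 regions, 6337 bases, and 33.6% of the 563 genes with a region within 20% of that length held a match. For Hmga2, with 3014 bases, the share among 2245 genes of like length was 15.5%. A match is a description of the sequence and not a measured target. The matches below run from 20 bases before the reverse complement of the seed. That reverse complement is in capitals, with the A that follows it in the longer form CTACCTCA. At least 1 match of the longer form was held by 3.1% of genes, over regions of any length. That share was not taken among genes of like length. One is shown per gene, in the longer form where the gene has it, and for Igf2bp1 all 3 of that form:
Igf2bp1, chr11:95961778-95961805, minus strand: gcagtgctgtgcgaagtaaaCTACCTCA
Igf2bp1, chr11:95959357-95959384, minus strand: ggaaccagcagtgctattaaCTACCTCA
Igf2bp1, chr11:95958763-95958790, minus strand: tacgagtataaatggatgaaCTACCTCA
Igf2bp2, chr16:22059473-22059500, minus strand: gaaaaacacacaaataaaagCTACCTCA
Igf2bp3, chr6:49086787-49086814, minus strand: aaacgtgcatttttactcaaCTACCTCA
Lin28a, chr4:134005189-134005216, minus strand: ggagtgcacagcctgttgaaCTACCTCA
Lin28b, chr10:45381022-45381049, minus strand: ccttcacccgggcgggaagtCTACCTCA
Hmga1, chr17:27563272-27563299, plus strand: tcttctcctctgttcacaaaCTACCTCt
Hmga2, chr10:120364224-120364251, minus strand: ggggcgccgacattcaatttCTACCTCA

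LIN28 proteins act one step earlier, on the let-7 precursors, where they contact a GGAG in the loop side of the hairpin. Of 12 let-7 family hairpins in the RefSeq table, 9 hold GGAG between the 2 arms, and those of Mirlet7b, Mirlet7c-2 and Mir98 do not. The hairpin of Mirlet7g (chr9:106178840-106178927, plus strand) is shown with GGAG in capitals:
Mirlet7g: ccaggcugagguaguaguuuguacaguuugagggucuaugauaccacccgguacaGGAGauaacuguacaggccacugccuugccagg

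Library totals ran from 35220504 to 42809015 counts. Levels are given as CPM, the counts of a gene relative to the TMM-scaled library size. The floor for a count of 0 is taken as 3 counts, a one-sided bound, which is 0.0708 to 0.0868 CPM. Intervals and floors cover counting error only. Of the 7 members, 4 passed the filter on low counts and were among the 15808 genes whose variation over the tumours was tested against the trend for their abundance (edgeR, Benjamini-Hochberg adjusted, threshold 0.05). The filter needs counts in all 4 tumours. Igf2bp3, Lin28a and Lin28b did not pass it. Of the 4 tested members 1, Igf2bp1, was past the threshold, and over all genes 3.63% were. Igf2bp1 was chosen for this spread, so nothing is read from that count. The epithelial genes Krt8 and Epcam, markers of the labelled tissue, had at least 786.6 and 477.7 CPM in every tumour. Tumour 3 stands apart from the others by skeletal muscle transcripts, described further on, so values that rest on it are also given without it.

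Among the RNA-binding proteins, Igf2bp1 (Entrez gene 140486, chr11:95957163-96005944 on GRCm38) was abundant in tumour 3 alone. The protein is best known for binding Actb messenger RNA, and the gene is normally shut off after birth. It had 19, 231, 4972 and 37 counts in tumours 1 to 4, which are 0.448, 6.68, 130.0 and 0.904 CPM. Tumour 3 was 19.5-fold above tumour 2, which was itself 7.39-fold above tumour 4 and 14.9-fold above tumour 1. The 4 values therefore spread over 290.0-fold, or 8.02 on the log2 scale, against a median of 0.78 over all genes tested. The mean was 34.5 ± 63.7 CPM (SD, n = 4). By the SD of log2 CPM it ranked 8 of 15808 genes. By the gap between its highest and its next tumour Igf2bp1 ranked 25. Exact 95% Poisson intervals were 202.2 to 262.8 counts in tumour 2, 11.4 to 29.7 in tumour 1 and 26.1 to 51.0 in tumour 4, so that in counting error alone the interval of tumour 2 lay above the other two and those of tumours 1 and 4 overlapped.

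Without tumour 3, the spread of Igf2bp1 over the other 3 tumours was 3.74 on the log2 scale. The order of tumours was 3, 2, 4 and 1, and tumours 4 and 1 were 2.02-fold apart. The gene was chosen on the values of all 4 tumours, so both are given as a description.

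Igf2bp2 (Entrez gene 319765, chr16:22059009-22163299), the member that adult tissues also express and that binds messenger RNAs of metabolism and mitochondria, was again highest in tumour 3. It had 257, 132, 882 and 118 counts in tumours 1 to 4, or 6.06, 3.82, 23.1 and 2.88 CPM. Tumour 3 was 3.80-fold above tumour 1, whereas tumours 1 and 4 were 2.10-fold apart. Its spread was 2.98 on the log2 scale with tumour 3 and 1.08 without it, and was not past the threshold. Igf2bp3, which in mouse is mainly an embryonic gene, had 1 count in tumour 3 and 0 counts in the others, so it was not detectable above the floor at this depth.

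The LIN28 genes had few counts in every tumour, including the one with high Igf2bp1. Only the interval of Lin28a in tumour 2 lay above the floor of 3 counts. Lin28a (Entrez gene 83557, chr4:134003330-134019196), the paralogue used in stem cell reprogramming, had 1, 22, 3 and 5 counts in tumours 1 to 4, at most 0.636 CPM. Its 22 counts in tumour 2 have an exact 95% Poisson interval of 13.8 to 33.3 counts, which lies above those of the other tumours, whose highest bound is 11.7 counts. Lin28b (Entrez gene 380669, chr10:45376617-45486314), the paralogue that several tumour types switch on, had 2, 1, 7 and 1 counts. Its highest value, 0.183 CPM in tumour 3, has an interval of 2.81 to 14.4 counts that overlaps the intervals of the other 3 tumours. For Lin28b the highest tumour is therefore not resolved at this depth. A gene on the opposite strand overlaps Lin28a, and without a known strand setting its few counts cannot be assigned to one strand.

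Of the chromatin proteins, Hmga2 (Entrez gene 15364, chr10:120361268-120476469), the embryonic paralogue and a textbook let-7 target, took the same order of tumours as Igf2bp2, namely 3, 1, 2 and 4. It had 161, 85, 350 and 42 counts, or 3.80, 2.46, 9.15 and 1.03 CPM in tumours 1 to 4. Tumour 3 was 2.41-fold above tumour 1, which was 3.70-fold above tumour 4, so no single tumour stood apart. The spread of Hmga2 was 3.09 on the log2 scale, 1.86 without tumour 3, and not past the threshold. Its transcribed pseudogene Hmga2-ps1 ran differently, with 3.42, 2.34, 1.88 and 4.25 CPM in tumours 1 to 4, lowest in tumour 3. Whether reads are shared between Hmga2 and Hmga2-ps1 was not examined, so the order of tumours for Hmga2 holds for its assigned counts only.

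Hmga1 (Entrez gene 15361, chr17:27556574-27563672), which dividing cells of many kinds express, ran the other way. It had 406, 458, 129 and 737 counts, or 9.58, 13.3, 3.37 and 18.0 CPM in tumours 1 to 4, so that tumour 3 was lowest and tumour 4 was 5.34-fold above it. Without tumour 3 its spread was 0.89 on the log2 scale, against 2.40 with it, and it was not past the threshold either way.

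**Figure D1:**
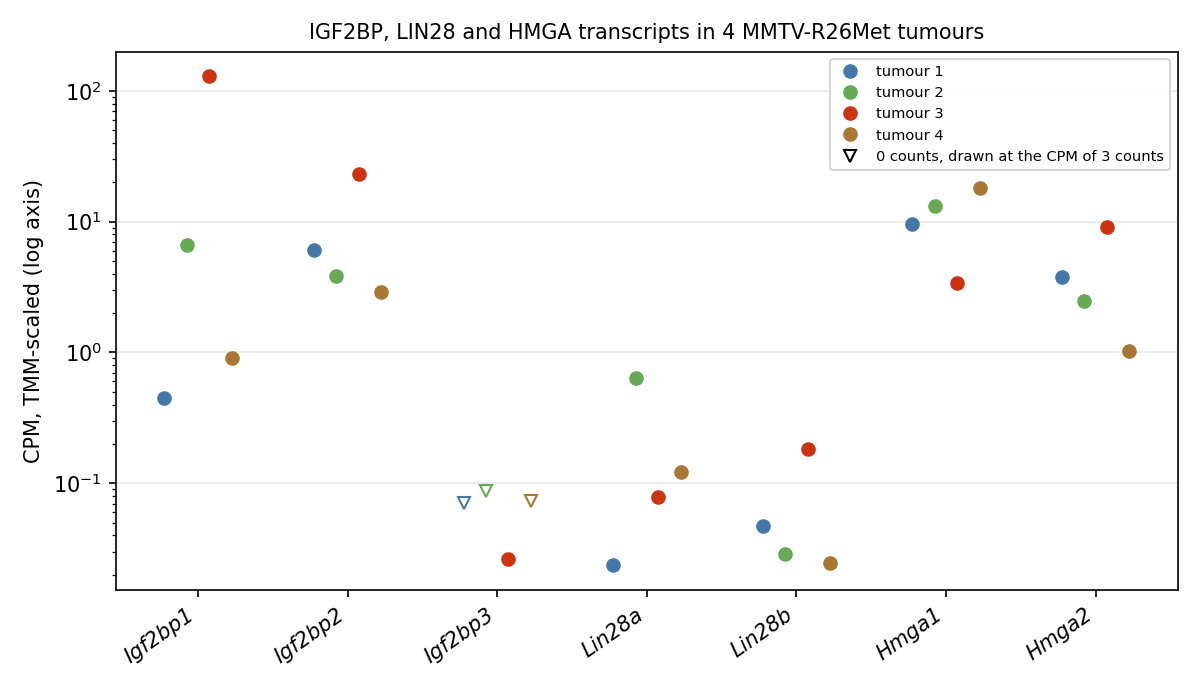
CPM (TMM-scaled, log axis) of the 7 genes, 1 point per tumour; open triangles mark 0 counts and stand at the CPM of 3 counts. Igf2bp1 reached 130.0 CPM in tumour 3, Igf2bp2 and Hmga2 were also highest there, Hmga1 was lowest there, and the LIN28 genes stayed below 1 CPM.

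The low Hmga1 value of tumour 3 has to be read with that of a near copy. Hmga1b (Entrez gene 111241, chr11:120762794-120764392), annotated as a separate protein-coding gene, aligns to an Hmga1 transcript with 1599 identical bases and 3 mismatches (99.8% identity). Of the 100-base windows in Hmga1b transcripts, 78.8% also occur in Hmga1, so a read of this length often cannot be assigned to one of them. How the authors treated such reads is not given in the sources used here. Hmga1b had 276, 352, 1324 and 609 counts in tumours 1 to 4, the highest value in tumour 3, where Hmga1 was lowest. Its share of the counts of the pair was 91.1% in tumour 3, with an exact 95% binomial interval of 89.5 to 92.5%, and 40.5, 43.5 and 45.2% in tumours 1, 2 and 4. The sum of both genes was 16.1, 23.4, 38.0 and 32.9 CPM in tumours 1 to 4. On the sum, tumour 3 was no longer the lowest but the highest of the 4, close to tumour 4, so the direction of Hmga1 in tumour 3 depends on how reads are split between the copies. Within the 7 members, no 100-base window of coding transcripts was shared between genes.

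**Figure D2:**
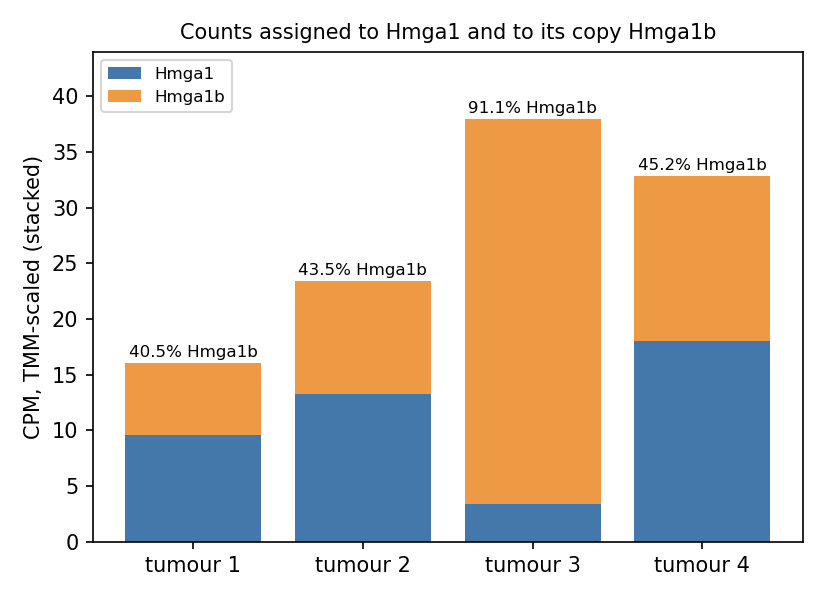
CPM (TMM-scaled) assigned to Hmga1 and, stacked on it, to Hmga1b in tumours 1 to 4. Hmga1b holds 91.1% of the counts of the pair in tumour 3 and 40.5 to 45.2% in the other tumours.

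Levels of different members can be set side by side only per length. On CPM per kilobase of annotated exon, Hmga1 led in tumours 1, 2 and 4 with 4.51, 6.23 and 8.47, and Igf2bp1 led in tumour 3 with 15.5. Igf2bp2 was second in each tumour, with 1.499, 0.944, 5.70 and 0.713 CPM per kilobase in tumours 1 to 4. Igf2bp1 was below Igf2bp2 in tumours 1, 2 and 4, at 0.0535, 0.798 and 0.108 CPM per kilobase, beside 0.997, 0.645 and 0.269 for Hmga2. Lin28a, Lin28b and Igf2bp3 took the last 3 places in every tumour. Averaged over the tumours, Hmga1 had 5.20 ± 2.90, Igf2bp1 4.12 ± 7.60, Igf2bp2 2.22 ± 2.35 and Hmga2 1.08 ± 0.931 CPM per kilobase (SD, n = 4). These 4 means differ by less than the spread of Igf2bp1 alone. With the counts of Hmga1b added to Hmga1, over the same length, the pair stood at 17.9 CPM per kilobase in tumour 3, above Igf2bp1, so first place in tumour 3 depends on the split of those reads.

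Next to Igf2bp1 on chromosome 11, 1 neighbour was also high in tumour 3. B4galnt2, a glycosyltransferase that completes the Sd(a) blood group sugar, ends 42203 bases from Igf2bp1 on the side of lower coordinates and had 0.778, 0.607, 45.4 and 1.05 CPM in tumours 1 to 4. Tumour 3 was 43.2-fold above tumour 4, the next highest, and the other 3 tumours lay together, tumour 2 included. The spread of B4galnt2 was past the threshold (edgeR adjusted p = 1.12e-10), but not without tumour 3 (edgeR adjusted p = 1). The next genes on that side, Gngt2, a subunit of a G protein, and Abi3, a regulator of actin, were little higher in tumour 3, Gngt2 at 7.74 CPM (5.30 to 7.55 CPM elsewhere) and Abi3 at 16.8 CPM (8.49 to 12.0 CPM elsewhere). On the other side Gip, which encodes a gut hormone, had 0.575 to 0.967 CPM, while Snf8, an ESCRT subunit, stayed at 34.0 ± 0.407 CPM (SD, n = 4) and Ube2z, a ubiquitin-conjugating enzyme, at 150.6 ± 17.5 CPM. None of these 5 was past the threshold. Of 12 tested genes other than Igf2bp1 with a centre within 500 kb of its centre, B4galnt2 was 5.75 higher in tumour 3 than the mean of the other tumours on the log2 scale, and the remaining 11 lay between -1.01 and 0.68. Thus 1 of the 12 was over 1 log2 unit higher in tumour 3, which is near the 7.77% of all genes tested. Igf2bp1 itself was 6.46 higher. Among genes of the window with too few counts for the test, Phospho1, a phosphatase of bone mineralization, had 89 counts in tumour 3 and at most 13 elsewhere. Nxph3, a secreted neurexophilin, had 48 counts in tumour 3 and at most 30 elsewhere. Hoxb13 had 7 counts in tumour 3 and 0 elsewhere, and Zfp652os had 2, 2, 8 and 6 counts in tumours 1 to 4. Hoxb5, Hoxb8 and Hoxb9 had at most 3 counts in any tumour. Ngfr, Hoxb6 and Hoxb7 were not highest in tumour 3. Ngfr had 5, 2, 27 and 128 counts in tumours 1 to 4. Hoxb6 had 0, 0, 0 and 8, and Hoxb7 had 0, 18, 0 and 24.

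**Figure D3:**
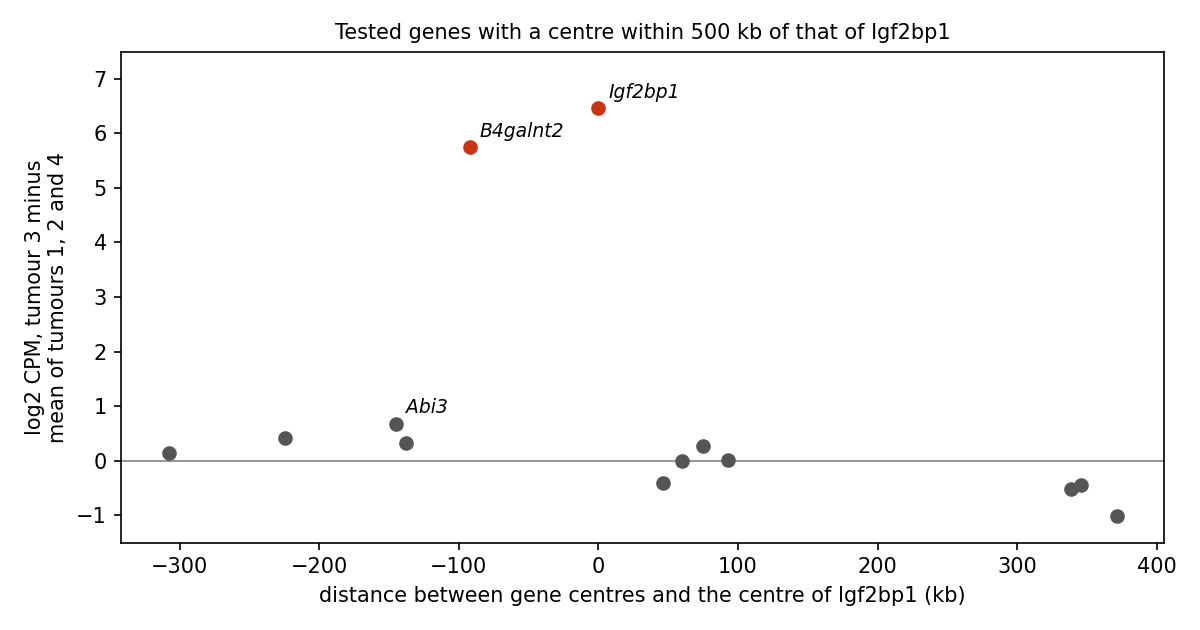
Log2 CPM of tumour 3 minus the mean of tumours 1, 2 and 4 (y axis) for tested genes, by the distance of the gene's centre from that of Igf2bp1 in kb (x axis). Igf2bp1 and B4galnt2 stand at 6.46 and 5.75, and the other 11 genes lie between -1.01 and 0.68.

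Across all chromosomes, the genes with profiles nearest to that of Igf2bp1 were found by the Euclidean distance between log2 CPM centred on each gene's mean, over 4 tumours. They were Wfdc2, Apod, Lipk, Masp1 and Ttn, at distances of 1.37, 1.78, 1.93, 2.09 and 2.09. Wfdc2, a secreted protein of the whey acidic protein family, had 3.92, 31.8, 285.6 and 5.495 CPM in tumours 1 to 4, and so shared with Igf2bp1 the order of all 4 tumours. Apod, a lipid-carrying apolipoprotein, had 2.64, 8.996, 170.6 and 3.40 CPM, also in that order. Lipk, a lipase of the epidermis, had 0.566, 3.82, 29.9 and 1.00 CPM. Masp1, a protease of the complement system, had 1.58, 4.37, 64.96 and 1.17 CPM, with tumour 4 below tumour 1. Ttn, the giant sarcomere protein titin, had 2.01, 6.25, 860.1 and 3.30 CPM. Ranking by Pearson's r instead kept 1 of the 5, Lipk, since r ignores the size of a change.

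Skeletal muscle transcripts also stood apart in tumour 3, as Ttn does. All 6 muscle markers were highest there, and their summed level was 930.5 CPM in tumour 3 against 1.46, 1.07 and 1.00 CPM in tumours 1, 2 and 4. Acta1, the muscle actin, had 344.1 CPM in tumour 3 and at most 0.377 CPM elsewhere. The part of muscle transcripts in the tumour 3 values of Igf2bp1, Igf2bp2, Hmga2 and the fetal genes below was not tested. In bulk RNA, fewer cells of a type and less RNA per cell cannot be told apart. The 6 epithelial markers summed to 3095 CPM in tumour 3, within the 2399 to 4263 CPM of the other tumours. All but Elf5 lay within the range of the other tumours 1 by 1. Elf5 was lowest in tumour 3, at 71.6 CPM against 104.1 to 387.7 CPM elsewhere. Krt19 varied most, with 11.6, 147.2, 40.9 and 370.9 CPM in tumours 1 to 4 (edgeR adjusted p = 1.96e-08). Germ and pluripotent cell markers summed to 7.24 CPM in tumour 3, within 4.98 to 19.2 CPM. In tumour 3 the summed markers of fibroblasts (3302 CPM), endothelium (176.1 CPM) and leukocytes (246.2 CPM) also lay within the range of the other tumours. Those of neural crest or Schwann cells (308.4 CPM) lay just below it. The basal epithelium sum (224.2 CPM) was within the range too, but its markers diverged. Acta2 (112.3 CPM) and Mylk (78.7 CPM) were highest in tumour 3, and Krt14 (28.4 CPM) lay between. Krt5, Trp63 and Oxtr were lowest in tumour 3, at 0.68, 1.91 and 2.22 CPM. The 6 adipocyte markers summed to 91.7 CPM in tumour 3 against 8.99 to 34.8 CPM elsewhere, nearly all of it Fabp4 (91.2 CPM), while Adipoq was at 0.183 CPM in tumour 3 and up to 3.73 CPM in tumour 2.

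Of RNAs known as bound by IGF2BP proteins, 2 of 13 tested passed the threshold, while 3.63% of all genes did. They were H19, an imprinted fetal long noncoding RNA, with 34.3, 9.55, 131.0 and 48.1 CPM in tumours 1 to 4 (edgeR adjusted p = 0.000455), and Ptgs2, which makes prostaglandins and was highest in tumour 4 at 40.7 CPM (edgeR adjusted p = 0.00241). Neither was past the threshold without tumour 2 (edgeR adjusted p = 0.438 and 0.173), H19 was not without tumour 3 (0.143), and Ptgs2 was not without tumour 4 (0.564). Igf2, the fetal growth factor that gave the family its name, had 9, 2, 1161 and 17 counts, 30.4 CPM in tumour 3 and at most 0.415 CPM in the others. It did not pass the filter on low counts. Tested with no count filter, it was past the threshold (edgeR adjusted p = 2.24e-10), as were 895 of 23632 genes. Igf2 was named after its values were seen and was high in tumour 3 alone, so nothing is read from that p-value. Actb, the most abundant of the list, had 3736 CPM in tumour 3 and no more than 3308 CPM elsewhere. The list's median, relative to each gene's mean, was 0.19 on the log2 scale in tumour 3 and -0.17 to 0.10 in the others, while that of all genes tested lay between -0.01 and 0.00.

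Of 12 other oncofetal genes measured, 7 were highest in tumour 3, of which Tdgf1 and Plac1 were so by a few counts (4 and 6 counts in tumour 3, at most 3 elsewhere). The share over all genes measured was not taken, so nothing is read from the 7. Of the 12, 4 were tested, and 3 of these were highest in tumour 3, as were 29.7% of all genes tested. The threshold was passed by 3 of the 4, namely Gpc3, H19 and Peg10, and by 3.63% of all genes tested. Gpc3, the heparan sulfate proteoglycan glypican-3 and a marker of fetal liver, had 2.38, 2.37, 72.8 and 3.42 CPM in tumours 1 to 4 (edgeR adjusted p = 5.53e-10). Without tumour 3 it did not pass (edgeR adjusted p = 1). Peg10, an imprinted gene of the placenta, was high in tumours 3 and 4, at 33.1 and 27.6 CPM, against 4.10 and 1.82 CPM in tumours 1 and 2 (edgeR adjusted p = 0.000525, and 0.15 without tumour 2). Afp, the fetal serum protein, had 23 counts in tumour 3 and 2 to 5 counts in the others, and Sall4, a factor of embryonic stem cells, had 0 counts in all 4. Because the filter asks for counts in every tumour, the 4 tested genes are not the whole list.

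**Figure D4:**
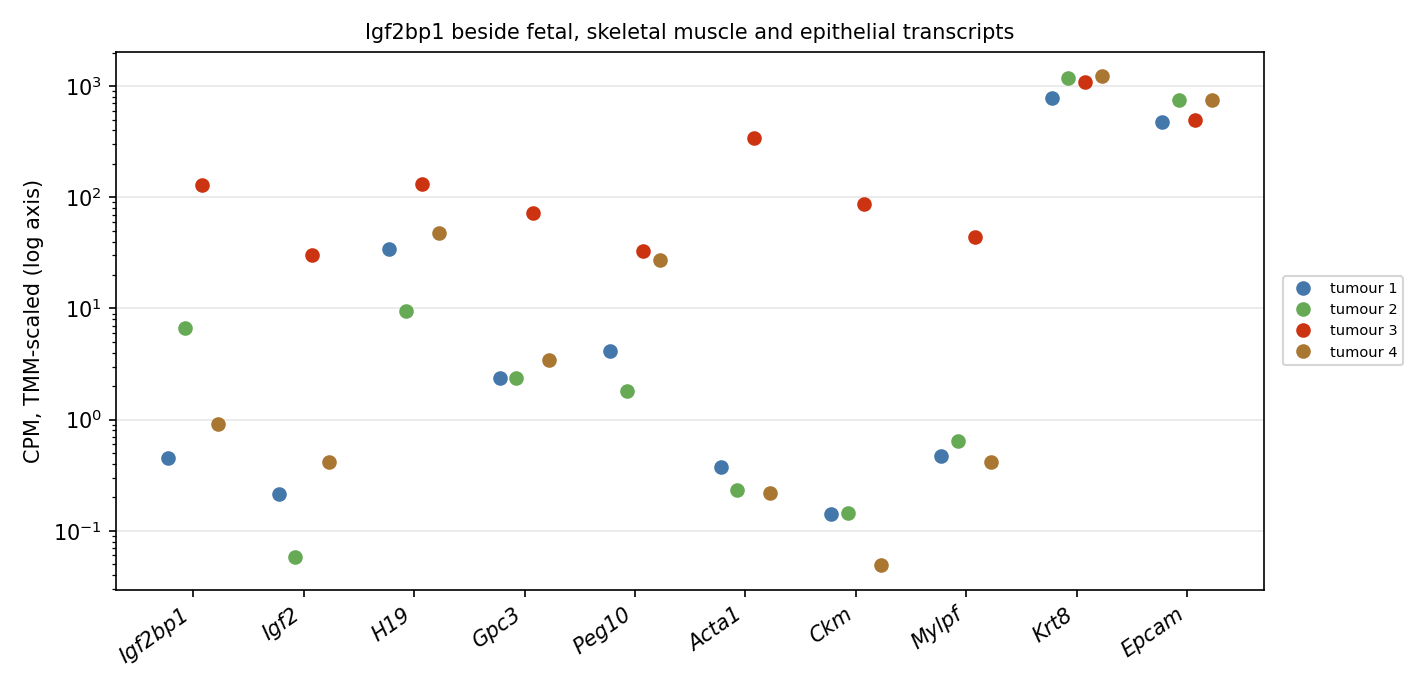
CPM (TMM-scaled, log axis) of Igf2bp1 beside 4 other fetal transcripts (Igf2, H19, Gpc3 and Peg10), 3 skeletal muscle transcripts (Acta1, Ckm and Mylpf) and 2 epithelial ones (Krt8 and Epcam), 1 point per tumour. In tumour 3 the fetal and the muscle transcripts were highest, with Peg10 almost level in tumour 4, while Krt8 and Epcam of tumour 3 lay within the range of the other tumours.

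Of 26 other known let-7 targets measured, 22 were tested and 0 passed in edgeR, where 3.63% of all genes did, with 2 at an unadjusted p under 0.05, and 0 were dispersion outliers in DESeq2. The list's median was 0.07 in tumour 3 on the log2 scale, against -0.19, 0.02 and 0.10 in tumours 1, 2 and 4. Tumour 3 was the highest for 7 of the 22, or 31.8%, near the 29.7% of all genes tested. It was also the highest for 10 of the 26 measured, for which the share over all genes measured was not taken. Thbs1, a matrix glycoprotein and the most abundant, reached 1059 CPM in tumour 3, with tumours 1, 2 and 4 at 633.0 to 743.7 CPM. Ccnd1, the D-type cyclin with the largest SD among the 22 tested, had 116.7, 84.95, 386.1 and 146.8 CPM in tumours 1 to 4. It was past the threshold without tumour 4 (edgeR adjusted p = 0.0198), but not with all tumours (edgeR adjusted p = 0.121). Nor did it pass without tumour 1 or 2 (edgeR adjusted p = 0.212 and 0.691), or without tumour 3. Among the untested targets Prtg, an embryonic receptor-like protein, had 4, 0, 64 and 2 counts.

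Among the genes that process let-7 and other microRNAs, 1 of 18 tested passed, a share near the 3.63% of all genes. It was Tut4, a terminal uridylyltransferase that LIN28A recruits to tag precursor let-7. Tut4 had 6.67, 6.39, 51.7 and 16.6 CPM in tumours 1 to 4 (edgeR adjusted p = 0.0116). It did not pass when tumour 1, 2 or 3 was left out (edgeR adjusted p of 0.0626, 0.109 and 1). Ddx5, an RNA helicase of the Drosha complex and the most abundant of the list, was lowest in tumour 3 at 955.0 CPM, with 992.5 to 1173 CPM elsewhere. The median of the list in tumour 3 was -0.05 on the log2 scale under TMM scaling and 0.01 with library size alone. The microRNAs themselves were not analysed here, and of 17 let-7 genes and hosts only 4 hosts had a row. Of these 0 passed in edgeR, with 1 at an unadjusted p under 0.05 and 0 as dispersion outliers in DESeq2. Mir100hg, which contains Mirlet7a-2, had 8.14, 14.8, 44.3 and 5.81 CPM (edgeR adjusted p = 0.0536, and 0.0392 with library size alone). It did not pass with any tumour left out, tumour 3 included. Huwe1, which contains Mirlet7f-2, had 413.6 to 637.6 CPM. A host transcript is no measure of mature let-7.

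Genes reported as regulated by HMGA proteins had 1 of 11 tested past the threshold, which 3.63% of all genes passed. That gene was Twist1, a factor of mesenchymal transition, with 4.76, 0.984, 16.9 and 1.05 CPM in tumours 1 to 4 (edgeR adjusted p = 0.00767), and it did not pass without tumour 2 or 3 (edgeR adjusted p = 0.113 and 0.428). Cdh1, the epithelial cadherin and the most abundant of the list, stood at 284.6 CPM in tumour 3, inside the range of 283.4 to 648.7 CPM over tumours 1, 2 and 4. The list's median was 0.51 in tumour 3, against 0.40, -0.14 and -0.65 on the log2 scale in tumours 1, 2 and 4.

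**Figure D5:**
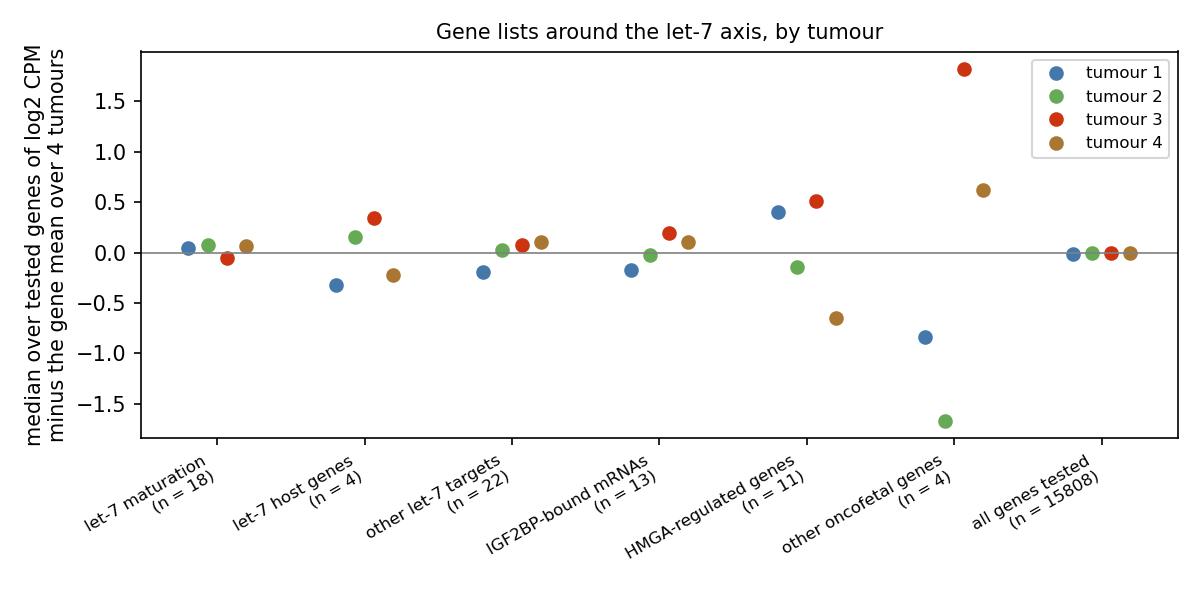
Median over tested genes of log2 CPM centred on each gene's average (y axis), for 6 gene lists and all genes tested, 1 point per tumour; n is the number of genes tested. Other oncofetal genes reach 1.82 in tumour 3, whereas let-7 maturation genes and other let-7 targets lie between -0.19 and 0.10 in every tumour.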

How the data were processed

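The authors deposited whole-number counts per Entrez gene, 1 column per tumour, without normalization. Paired reads of 100 bases came from poly-A RNA, per the labels' protocols. FastQC, GRCm38 and mm10 are named, per the submitters' processing notes. Which aligner, counter, annotation and strand setting produced the table is not given in the sources used here. Overlapping antisense genes therefore cannot be told apart. In GENCODE M21, genes on the opposite strand overlap Igf2bp1, Igf2bp3, Lin28a, Hmga1 and Hmga2, and 0 genes overlap Igf2bp2 or Lin28b.

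Of 28440 rows, 24480 (86.08%) matched a symbol in the RefSeq table of GRCm38.p6, and rows without one stayed in the tests. The tool was edgeR 4.0.16 under R 4.3.3, with filterByExpr (10 counts at the median library size in all tumours, 15 in total), TMM scaling, log2 CPM with a prior count of 2, and, per gene, the deviance of a negative binomial model with an intercept alone, at the trended dispersion, compared with chi-square (Benjamini-Hochberg over all genes). With 1 group no contrast exists. P-values measure the spread between these 4 samples, whose independence the labels do not state. The test was checked on simulated counts. Length is the union of exons in GENCODE's basic transcripts. Hmga1 and Hmga1b transcripts were aligned locally with Biopython 1.88.

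The members and lists were chosen with earlier results of these data known, so no pattern already seen counts as independent support. Named genes are the members, the 5 genes nearest in profile to Igf2bp1, the 3 measured genes on each side of it, the most abundant, most variable and passing genes of each list, and the most abundant marker of each cell type. Hmga1b, Igf2, Prtg, Afp, Sall4, Tdgf1, Plac1, Phospho1, Nxph3, Epcam, Ckm, Mylpf and Adipoq were named after their values were seen. The same holds for Hmga2-ps1, Ngfr, Zfp652os, Hoxb5, Hoxb6, Hoxb7, Hoxb8, Hoxb9, Hoxb13, Krt5, Krt14, Krt19, Elf5, Trp63, Mylk and Oxtr. Alternatives were RLE scaling, library size alone, other prior counts, no count filter, dispersion outliers in DESeq2 1.42.0, and leaving out each tumour.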

Additional observations from a re-analysis of the deposited data

Results flagged for a closer look

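Of 40 named genes examined, 3 had a tumour far from the others, by the gap from that tumour to its nearest neighbour as a share of the range of log2 CPM. All 3 exceed Dixon's 95% critical value for groups of 4. The share was 0.936 for Acta1, 0.894 for Gpc3 and 0.879 for B4galnt2, each highest in tumour 3. Chance gives about 1 in 20 such groups, and muscle and fetal genes were named because of their lists, not at random. Igf2bp1 itself did not reach the limit, since tumour 2 lies between tumour 3 and the others.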

How the results depend on the processing

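The members' spreads kept their size under both other scalings and both other prior counts. Leaving out 1 tumour gave log2 differences between the highest and lowest tumour of 3.74 to 8.02 for Igf2bp1, 1.08 to 2.98 for Igf2bp2, 0.89 to 2.41 for Hmga1 and 1.86 to 3.10 for Hmga2, the lowest of the first 3 without tumour 3. Igf2bp1 was past the threshold in all 8 alternatives, and no other member was in any. Igf2bp1 was chosen for its spread over these same tumours, so nothing is read from those passes. Over all genes, 574 passed, against 895 with no count filter, 91 as dispersion outliers in DESeq2 and 367 to 417 with 1 tumour left out, the fewest without tumour 4. Passing members with 1 tumour left out numbered 0 to 1 for let-7 maturation, other let-7 targets and HMGA-regulated genes, 0 to 2 for IGF2BP-bound RNAs and 1 to 3 for other oncofetal genes. With library size alone 1 let-7 host passed, and the median of let-7 maturation in tumour 3 was 0.01. Of the 5 genes nearest to Igf2bp1, Pearson's r kept 1 and both other prior counts kept 5. As dispersion outliers in DESeq2, Igf2bp1, Gpc3 and B4galnt2 were called, whereas Tut4, H19, Ptgs2, Twist1 and Peg10 were not. The causes were not tested. No paired analysis was possible because the 4 tumours form 1 group. Depth limits Igf2bp3, Lin28a and Lin28b to statements about detection.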
